A study of Mus musculus with 13 samples.

Results

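The heterochromatin regulators described here are 10 genes that write, read or act on methylated lysine 9 of histone H3 (H3K9) or deacetylate chromatin at the nuclear periphery. They were taken by symbol from the deposited count table, and all 10 were found among its 33618 Ensembl gene identifiers. They comprise the HP1 genes *Cbx1*, *Cbx3* and *Cbx5*, the H3K9 methyltransferase genes *Suv39h1*, *Suv39h2*, *Ehmt1*, *Ehmt2* and *Setdb1*, the corepressor gene *Trim28* and the histone deacetylase gene *Hdac3*. All 10 passed edgeR's filter on low counts, as did 16753 genes in total. RNA was sequenced from whole parametrial white adipose tissue (pmWAT) of female mice, in 1 library per mouse. The 7 fl/fl mice carried floxed alleles of *Lmna*, the gene of the nuclear lamina proteins lamin A and lamin C, and no Cre. The 6 *Lmna* iADKO mice carried the same floxed alleles and *Adipoq*-CreERT2, a tamoxifen-activated Cre driven by an adipocyte promoter. Mice of both genotypes were 12 to 14 weeks old when they were given tamoxifen at 50 mg/kg on 5 consecutive days, and the tissue was collected 2 weeks posttamoxifen. Cre was driven in adipocytes, whereas the RNA came from all cells of the fat pad. For every gene below, fewer cells of a type and less RNA per cell cannot be told apart.

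Heterochromatin is the compact, gene-poor and largely silent part of the genome, much of which lies against the nuclear lamina. SUV39H1 and SUV39H2 trimethylate H3K9 at pericentromeric repeats, EHMT1 and EHMT2 (GLP and G9a) mono- and dimethylate it in euchromatin and in lamina-associated regions, and SETDB1 trimethylates it at retroelements and silenced genes. The HP1 proteins CBX1 (HP1β), CBX3 (HP1γ) and CBX5 (HP1α) bind methylated H3K9 through a chromodomain. TRIM28 (KAP1) is brought to DNA by KRAB zinc finger proteins and there recruits SETDB1 and HP1. HDAC3 works in the NCoR/SMRT corepressor complex and is bound by proteins of the inner nuclear membrane. In adipocytes it is known as a corepressor of metabolic genes.

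The promoters of the 3 members whose mRNA differed between genotypes, and of *Cbx1* as an HP1 gene whose mRNA did not pass the test, are shown for the letters the members share. The RefSeq promoter table (GRCm38.p6, a different build from the GRCm39 gene coordinates given below) held 9 of the 10 members, all but *Hdac3*. Each sequence is the 250 bases before a transcription start, 5′ to 3′ on the gene's strand, and capitals mark matches on either strand. For *Cbx3*, *Cbx5*, *Suv39h1* and *Ehmt2* the promoter table held 2 starts. Only the most upstream was used, and the matches below rest on that choice. The words searched were the GC box, spelled GGGCGG, the box named after its letters CCAAT, and a word bound by ETS factors, CCGGAAG.
Cbx5 (chr15:103239853-103240102, minus strand): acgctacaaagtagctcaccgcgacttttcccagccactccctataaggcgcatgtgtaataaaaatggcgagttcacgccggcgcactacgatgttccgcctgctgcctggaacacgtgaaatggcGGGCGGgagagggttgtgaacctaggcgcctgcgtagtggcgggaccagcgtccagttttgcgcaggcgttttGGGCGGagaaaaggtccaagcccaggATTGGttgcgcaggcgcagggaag
Cbx1 (chr11:96788885-96789134, plus strand): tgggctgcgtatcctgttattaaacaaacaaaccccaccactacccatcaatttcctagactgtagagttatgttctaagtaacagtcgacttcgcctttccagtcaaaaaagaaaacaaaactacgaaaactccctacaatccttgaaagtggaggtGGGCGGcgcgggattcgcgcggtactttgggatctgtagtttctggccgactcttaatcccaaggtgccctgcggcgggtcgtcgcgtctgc
Setdb1 (chr3:95357203-95357452, minus strand): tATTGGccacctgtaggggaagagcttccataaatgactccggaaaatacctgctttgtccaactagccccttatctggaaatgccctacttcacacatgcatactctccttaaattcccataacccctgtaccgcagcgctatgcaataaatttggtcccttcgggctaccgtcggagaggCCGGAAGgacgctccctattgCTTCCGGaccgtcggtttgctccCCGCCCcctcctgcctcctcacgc
Trim28 (chr7:13023902-13024151, plus strand): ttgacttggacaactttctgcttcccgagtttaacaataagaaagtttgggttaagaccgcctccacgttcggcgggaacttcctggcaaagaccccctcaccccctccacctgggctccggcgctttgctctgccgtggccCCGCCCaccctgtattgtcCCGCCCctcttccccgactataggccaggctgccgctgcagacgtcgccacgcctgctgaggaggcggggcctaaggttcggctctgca
GGGCGG was found in 9 of the 9 members' promoters and in 32.7% of the 32851 promoters in the table. The *Cbx5* promoter held it at -123 and -50, counted from the start, with a reversed CCAAT at -24. In *Setdb1* the reversed GC box at -24 lay beside a pair of CCGGAAG words in opposite orientations at -68 and -47, and *Setdb1* was the only member with that word, which 6.91% of all promoters held. *Trim28* held reversed GC boxes at -108 and -89, and *Cbx1* 1 GC box at -92. CCAAT was found in 3 of 9 members and 33.8% of all promoters. Both strands were searched, and the matches shown do not overlap one another. The 9 promoters held 11 to 29 CpG dinucleotides, against a median of 6.0 in the table. These matches are descriptions of letters, and no binding was measured.

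Between 18854223 and 19776491 reads per library were counted on genes. *Lmna* itself stood at 84.7 ± 7.51 CPM (reads scaled to a common library size by TMM factors, SD, n = 7) in fl/fl against 96.7 ± 11.5 (SD, n = 6) in iADKO, no lower in the libraries with that label (edgeR adjusted p = 0.0785). The counts are for the whole gene, so the floxed exons could not be read apart, and the directions below rest on the labels. All 7 adipocyte markers fell (summed level 14858 to 21152 CPM in fl/fl, 8826 to 15194 CPM in iADKO), 6 of 8 macrophage markers rose (1346 to 2515 CPM and 1753 to 3017 CPM), and 6 of 10 proliferation markers rose (32.3 to 59.5 CPM and 48.9 to 76.8 CPM). Further, 2 of 5 T cell and 2 of 4 B cell markers rose and 2 of 4 endothelial markers fell, whereas no progenitor, mesothelial, skeletal muscle or smooth muscle marker passed the test, and no marker was at 0 in any library. Library fl/fl 5 had the lowest adipocyte and highest macrophage level of its group, and iADKO 6 the highest adipocyte and lowest macrophage level of its group. *Cbx5*, *Setdb1*, *Trim28*, *Hdac3*, *Dnmt3a* and *Uhrf1* are also given without both libraries, an alternative chosen after seeing the data. The part of cell composition in the results below was not tested.

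Of the 10 members, 2 rose (*Trim28*, *Setdb1*), 1 fell (*Cbx5*) and 7 did not pass edgeR's quasi-likelihood test at a Benjamini-Hochberg adjusted p of 0.05. Among all genes tested, 30.5% passed, 14.1% higher and 16.3% lower in iADKO, so the members' 3 of 10 is close to the background. The median log2 fold change (iADKO over fl/fl) of the members was 0.025, beside 0.033 for all genes, and their median absolute log2 fold change was 0.095, beside 0.21. The summed level of the 10 members was 663.7 ± 15.6 CPM (SD, n = 7) in fl/fl against 669.7 ± 17.3 CPM in iADKO (SD, n = 6). The changes that passed were of either sign, and the largest was 1.25-fold.

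**Figure D1:**
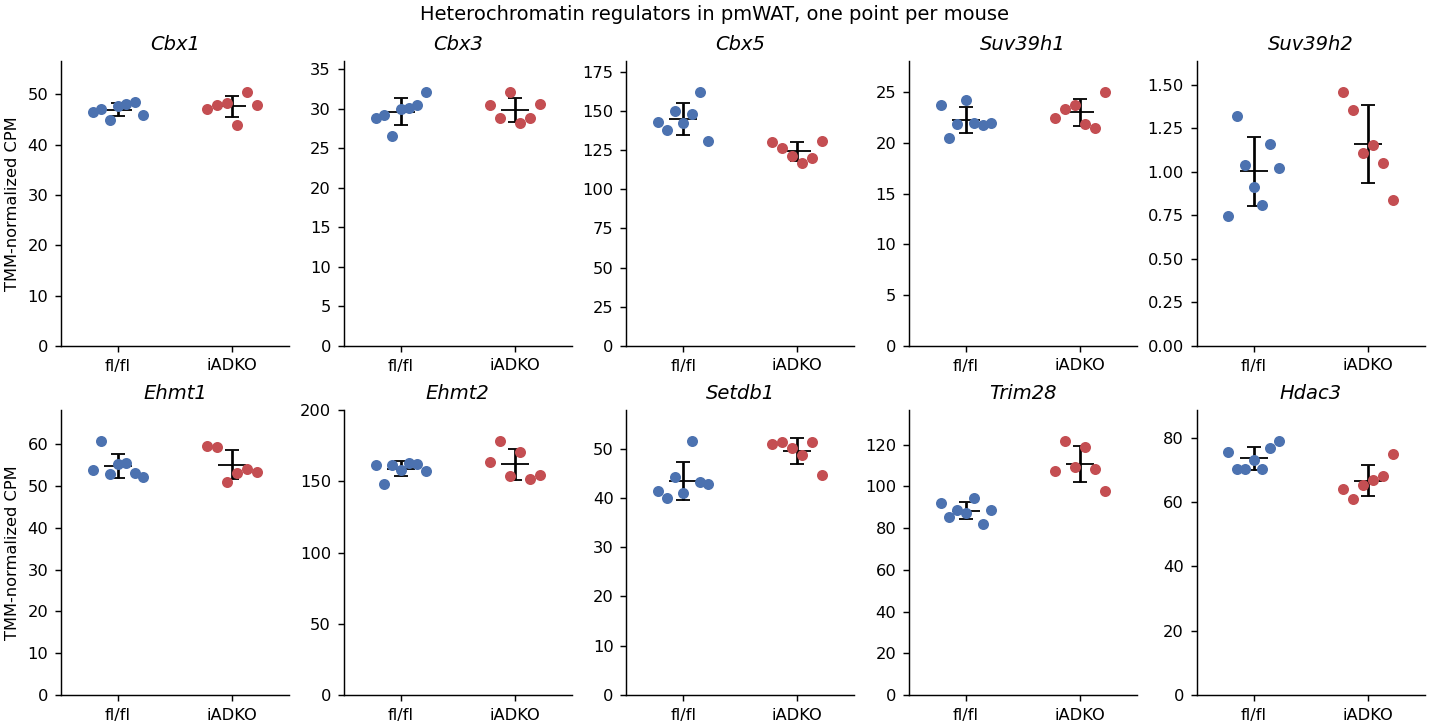
TMM-normalized CPM of each member in every library (points), with group mean and SD (bars), for 7 fl/fl and 6 iADKO mice, each vertical axis starting at 0. *Cbx5* is lower in every iADKO library than in any fl/fl library and *Trim28* higher. *Setdb1* overlaps through fl/fl 5 and *Hdac3* through iADKO 6. The groups of the other members overlap, with *Suv39h2* the most widely spread.

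Among the HP1 genes, *Cbx5* fell and its paralogs did not pass the test. *Cbx5* (ENSMUSG00000009575, chromosome 15, 103099505 to 103148419, minus strand, GRCm39) was at 131 CPM at the lowest, 143 at the median and 162 at the highest in fl/fl, and at 117, 124 and 130.5 CPM in iADKO. No iADKO library reached the lowest fl/fl library, but the gap between fl/fl 7 and iADKO 6 was narrow. The log2 fold change of *Cbx5* was -0.22 (standard error 0.053, 95% interval -0.34 to -0.11, edgeR adjusted p = 0.00702). Without fl/fl 5 and iADKO 6 it was -0.26 (edgeR adjusted p = 0.00286), in a fit where 42.9% of all genes passed. Non-overlap downward was seen in 3.93% of all genes. *Cbx1* (ENSMUSG00000018666, chromosome 11, 96679933 to 96700423, plus strand) was at 44.8, 47.0 and 48.5 CPM (lowest, median, highest) in fl/fl and 43.9, 47.9 and 50.5 CPM in iADKO. Its log2 fold change was 0.021 with a 95% interval of -0.066 to 0.11 (edgeR adjusted p = 0.718). *Cbx3* (ENSMUSG00000029836, chromosome 6, 51447082 to 51460691, plus strand) was at 26.5, 30.0 and 32.1 CPM in fl/fl and 28.2, 29.6 and 32.1 CPM in iADKO. Its log2 fold change was 0.011 with an interval of -0.099 to 0.12 (edgeR adjusted p = 0.889). The groups overlapped almost entirely for both genes in these libraries.

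The HP1 genes could be compared within each library, where the scaling between libraries cancels. The log2 ratio of *Cbx5* to *Cbx1* was 1.62 ± 0.089 (SD, n = 7) in fl/fl and 1.38 ± 0.083 (SD, n = 6) in iADKO, and the groups did not overlap (1.51 to 1.74 and 1.24 to 1.47). The difference of -0.24 had p = 0.000583 in a two-sided exact permutation test over the 1716 splits, the smallest it can give, and an adjusted p of 0.0035 over the 6 ratios tested. For *Cbx5* to *Cbx3* the ratio was 2.29 ± 0.15 (SD, n = 7) and 2.05 ± 0.078 (SD, n = 6), a difference of -0.23 with overlap through fl/fl 7 (exact permutation p = 0.0076, adjusted p = 0.0227). *Cbx3* to *Cbx1* was -0.66 ± 0.073 (SD, n = 7) and -0.67 ± 0.083 (SD, n = 6), which did not pass (exact permutation p = 0.846, adjusted p = 0.846). Per kilobase of canonical transcript, *Cbx5* was 23.9% ± 1.30 (SD, n = 7) of the summed HP1 mRNA level in fl/fl and 21.0% ± 0.844 (SD, n = 6) in iADKO, and *Cbx1* 56.2% ± 0.648 (SD, n = 7) and 58.4% ± 1.23 (SD, n = 6). The summed HP1 level itself was 64.1 ± 1.95 (SD, n = 7) and 62.5 ± 2.16 CPM per kilobase (SD, n = 6). These shares depend on the transcript chosen, since over all annotated exons *Cbx5* (14.0 CPM per kilobase in fl/fl) stood above *Cbx1* (7.39 CPM per kilobase).

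**Figure D2:**
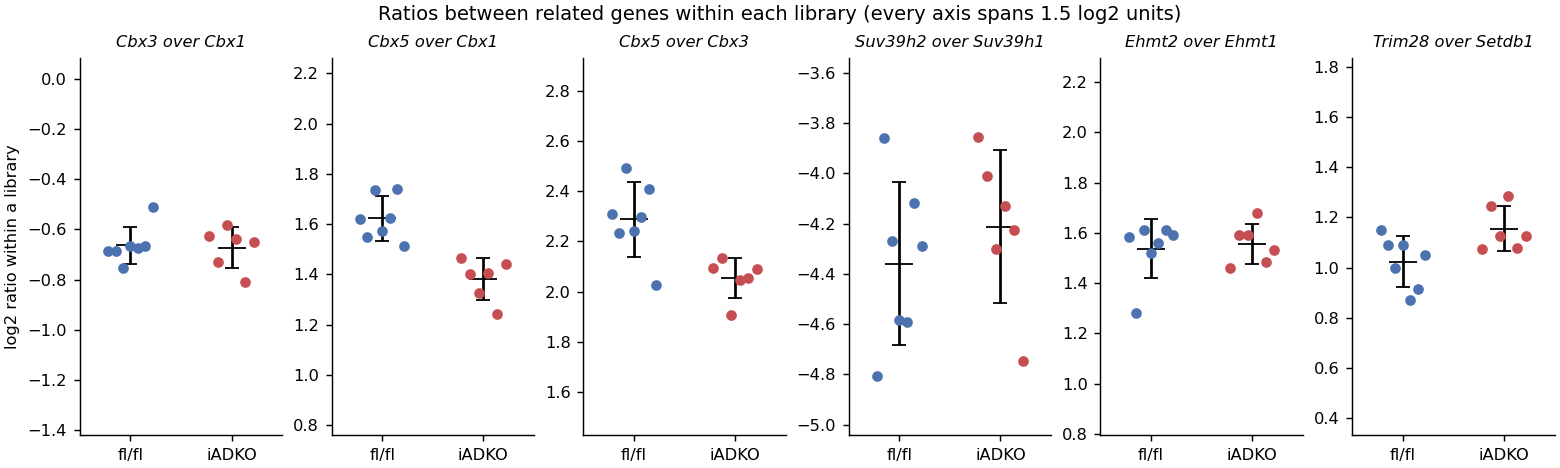
Log2 ratio of CPM between related members within each library (points), with group mean and SD, for 6 pairs. All axes span the same number of log2 units. The pairs with *Cbx5* are lower in iADKO, without overlap for *Cbx5* over *Cbx1* but with overlap for *Cbx5* over *Cbx3*. The groups overlap for all other pairs.

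Of the 5 H3K9 methyltransferases, *Setdb1* rose and the other 4 did not pass. *Setdb1* (ENSMUSG00000015697, chromosome 3, 95229399 to 95264541, minus strand) was at 40.0, 42.9 and 51.6 CPM (lowest, median, highest) in fl/fl and 44.7, 50.5 and 51.4 CPM in iADKO. Its log2 fold change was 0.19 (standard error 0.060, edgeR adjusted p = 0.0299). The highest library of all 13 was fl/fl 5, at 51.6 CPM, and the lowest iADKO library was iADKO 6, the same pair that stood apart in adipocyte and macrophage markers. Without both libraries the log2 fold change was 0.24 (edgeR adjusted p = 0.00049), in a fit where 42.9% of all genes passed. Leaving out the highest fl/fl and the lowest iADKO library widens the difference by itself. The call was the least steady of the 3, since leaving out any 1 of 8 other libraries (fl/fl 1, 2, 4 or 6, iADKO 1, 2, 3 or 5) gave adjusted p of 0.0504 to 0.0629.

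*Ehmt2*, the gene of G9a, was at 148, 161 and 163 CPM (lowest, median, highest) in fl/fl and 152, 159 and 179 CPM in iADKO. The log2 fold change of *Ehmt2* (ENSMUSG00000013787, chromosome 17, 35117256 to 35133048, plus strand) was 0.029 with a 95% interval of -0.076 to 0.14 (edgeR adjusted p = 0.674). *Ehmt1*, which encodes its partner in a heterodimer, was at 52.2, 53.8 and 60.8 CPM in fl/fl and 51.0, 53.7 and 59.6 CPM in iADKO. For *Ehmt1* (ENSMUSG00000036893, chromosome 2, 24679940 to 24809696, minus strand) the log2 fold change was 0.0087 with an interval of -0.10 to 0.12 (edgeR adjusted p = 0.912). Both genes had overlapping groups, and the log2 ratio of *Ehmt2* to *Ehmt1* was 1.54 ± 0.12 (SD, n = 7) and 1.56 ± 0.081 (SD, n = 6) (exact permutation p = 0.784, adjusted p = 0.846).

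*Suv39h1* (ENSMUSG00000039231, chromosome X, 7927403 to 7940999, minus strand) was at 20.5, 21.9 and 24.2 CPM in fl/fl and 21.5, 22.9 and 25.0 CPM in iADKO, with a log2 fold change of 0.046 (95% interval -0.070 to 0.16, edgeR adjusted p = 0.538). *Suv39h2* (ENSMUSG00000026646, chromosome 2, 3455774 to 3476146, minus strand) had only 13 to 30 reads per library, or 0.747, 1.02 and 1.32 CPM in fl/fl and 0.835, 1.13 and 1.46 CPM in iADKO. Its interval was accordingly wide, -0.17 to 0.59 around a log2 fold change of 0.21 (edgeR adjusted p = 0.377), so a change of the size seen in *Trim28* was not detectable at this depth. *Suv39h1* held 97.5% ± 0.609 (SD, n = 7) of the summed *Suv39h1* and *Suv39h2* mRNA level per kilobase in fl/fl and 97.2% ± 0.586 (SD, n = 6) in iADKO, and their log2 ratio did not pass (difference 0.15, exact permutation p = 0.415, adjusted p = 0.622).

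Ordered by level per kilobase of canonical transcript in fl/fl, the members ran from *Ehmt2* (39.0 ± 1.30 CPM per kilobase, SD, n = 7) and *Cbx1* (36.0 ± 0.992), through *Trim28* (26.9 ± 1.28), *Hdac3* (26.1 ± 1.27), *Cbx5* (15.3 ± 1.05) and *Cbx3* (12.7 ± 0.734), to *Setdb1* (9.42 ± 0.838), *Ehmt1* (9.12 ± 0.488), *Suv39h1* (7.13 ± 0.405) and *Suv39h2* (0.185 ± 0.037). The neighbours *Trim28* and *Hdac3*, and *Setdb1* and *Ehmt1*, lay within their SDs in fl/fl. In iADKO *Trim28* (33.7 ± 2.66, SD, n = 6) stood above *Hdac3* (23.6 ± 1.70). By this length the methyltransferase mRNA of the tissue was mostly that of *Ehmt2*, at 60.2% ± 0.890 (SD, n = 7) of the summed level of the 5 genes per kilobase in fl/fl and 59.1% ± 1.34 (SD, n = 6) in iADKO, whereas *Setdb1* went from 14.5% ± 0.968 (SD, n = 7) to 15.9% ± 0.881 (SD, n = 6). The order and shares depend on the transcript chosen. Over all annotated exons in fl/fl, *Ehmt2* was still the highest (27.6 CPM per kilobase), but *Cbx1* (7.39) stood below *Cbx5* (14.0). *Setdb1* (3.96) then stood below *Ehmt1* (5.21) and *Suv39h1* (4.10).

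*Trim28*, the corepressor gene, had the largest change of the members. *Trim28* (ENSMUSG00000005566, chromosome 7, 12733041 to 12764976, plus strand) was at 81.8, 88.7 and 94.4 CPM (lowest, median, highest) in fl/fl and 97.7, 109 and 122 CPM in iADKO. Every iADKO library was above every fl/fl library, as in 2.71% of all genes. The log2 fold change was 0.32 (standard error 0.055, 95% interval 0.21 to 0.44), a 1.25-fold rise with an edgeR adjusted p of 0.00102. The lowest iADKO library was again iADKO 6 and the highest fl/fl library fl/fl 5. Without both the log2 fold change was 0.35 (edgeR adjusted p = 7.9e-05), in a fit where 42.9% of all genes passed. Here too, leaving out these libraries widens the difference by itself. The log2 ratio of *Trim28* to *Setdb1*, its methyltransferase partner, was 1.02 ± 0.10 (SD, n = 7) and 1.16 ± 0.088 (SD, n = 6), and its difference of 0.13 did not pass after adjustment (exact permutation p = 0.0367, adjusted p = 0.0734).

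*Hdac3* (ENSMUSG00000024454, chromosome 18, 38068897 to 38088077, minus strand) was at 70.2, 72.9 and 79.0 CPM (lowest, median, highest) in fl/fl and 60.8, 66.0 and 75.0 CPM in iADKO. In 5 of the 6 iADKO libraries *Hdac3* was below every fl/fl library, and iADKO 6 was at 75.0 CPM, within the fl/fl range. The log2 fold change of -0.14 (standard error 0.052, 95% interval -0.25 to -0.031) just missed the threshold, with an edgeR adjusted p of 0.051. Without iADKO 6 the value was -0.18 (edgeR adjusted p = 0.0117), and without fl/fl 5 as well it was -0.21 (edgeR adjusted p = 0.00281), in a fit where 42.9% of all genes passed. These were the highest iADKO and the lowest fl/fl library for *Hdac3*, so leaving them out widens the difference by itself. DESeq2's Wald test gave -0.16 (adjusted p = 0.0211) and passed 30.5% of the genes it tested. *Hdac3* passed in only 6 of 24 alternatives, and not with replicate number as a block (edgeR adjusted p = 0.0821).

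Scaling and library series set the limits of these values. TMM factors ran from 0.892 to 1.02 in fl/fl libraries but from 1.05 to 1.10 in the other genotype. With library totals in place of TMM, under which 51.8% of all genes passed, the median log2 fold change of all genes was 0.24, *Cbx5* was at -0.021 (edgeR adjusted p = 0.779) and *Hdac3* turned to 0.059. Relative to the median of all genes, *Cbx5* was at -0.26, *Hdac3* at -0.18, *Setdb1* at 0.15 and *Trim28* at 0.29 under either scaling. The numbers in the library names fell into 5 runs, of which only 2 held both genotypes: fl/fl 4 and 5 with iADKO 4 and 6, and fl/fl 1, 2 and 3 with iADKO 2. Within these runs the log2 difference (iADKO minus fl/fl) was -0.23 and -0.18 for *Cbx5*, 0.25 and 0.46 for *Trim28*, 0.023 and 0.29 for *Setdb1*, and -0.016 and -0.24 for *Hdac3*. With the 5 runs as a block no member passed, and 0.322% of all genes passed. The edgeR adjusted p with this block was 0.0692 for *Trim28*, 0.166 for *Cbx5*, 0.374 for *Hdac3* and 0.394 for *Setdb1*.

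**Figure D3:**
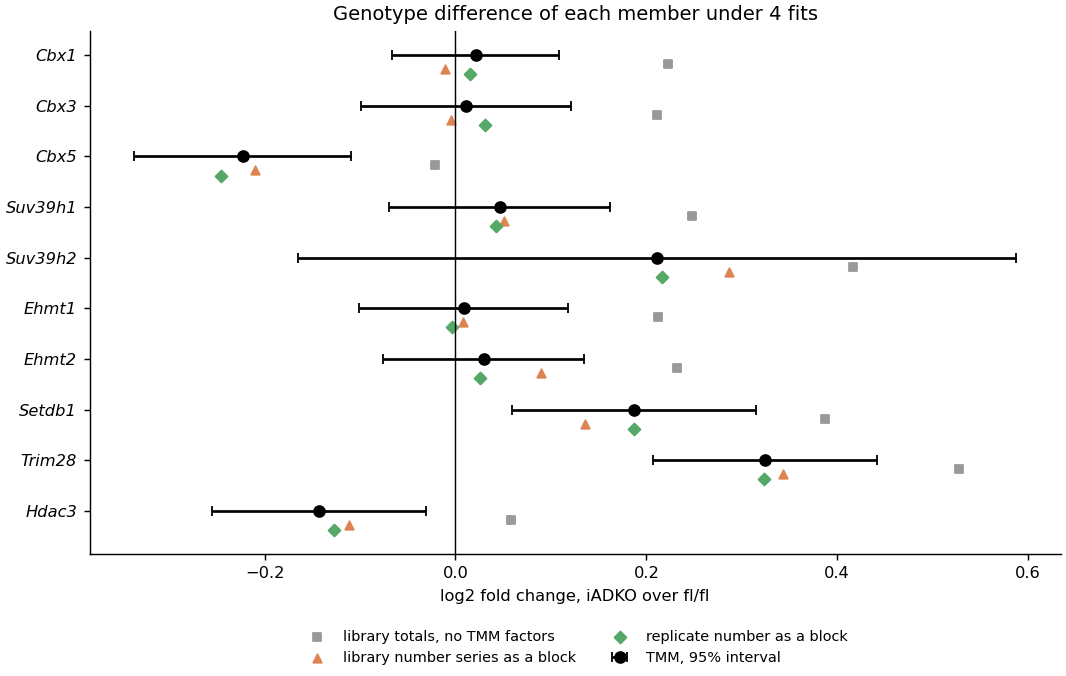
Log2 fold change of each member, iADKO over fl/fl (horizontal axis), with TMM scaling and its 95% interval (black), and without an interval for library totals (grey), library number series as a block (orange) and replicate number as a block (green). Grey points lie to the right of black ones in every member. *Trim28* and *Cbx5* stay near their values with either block, and *Setdb1* is at 0.14 with the library number series. With that block no member passed the test.

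Several members share genomic sequence with neighbours. Libraries were strand specific, but whether strand was used in counting is not given in the sources used here. *Cbx5* and *Hnrnpa1*, a splicing factor gene on the opposite strand, overlap by 81 bases at their starts. *Hnrnpa1* was at 194, 211 and 219.8 CPM (lowest, median, highest) in fl/fl and 242, 259 and 275 CPM in iADKO. No libraries overlapped between groups, and the log2 fold change of 0.31 (standard error 0.051, edgeR adjusted p = 0.00079) was opposite in sign to that of *Cbx5*. *Cbx3* shares 968 bases with *Hnrnpa2b1*, which had a log2 fold change of 0.024 (edgeR adjusted p = 0.777). The bounds of *Trim28* take in *Zbtb45* on the other strand, with 2392 reads over all libraries and a log2 fold change of 0.24 (edgeR adjusted p = 0.0455), and reach into *Chmp2a*, with -0.051 (edgeR adjusted p = 0.487). *Suv39h2* overlaps *Dclre1c* over 9394 bases, so its low counts are uncertain, and *Cers2* beside *Setdb1* had a log2 fold change of -0.045 (edgeR adjusted p = 0.555). The 4 annotated *Cbx3* pseudogenes with any reads held 66 reads in all libraries together. These neighbours were picked by position, outside the rule for named genes.

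Of 93 other genes of heterochromatin and related silencing, in 9 lists, 92 were tested, of which 20 rose and 5 fell. That is 27.2%, against 30.5% of all genes, and their median log2 fold change was 0.058. Among all genes 14.1% rose and 16.3% fell, so rises outnumbered falls in these lists but not among all genes. The same shares are the background of each list below. Among the 10 partners of HP1, 4 rose and none fell. *Daxx*, an H3.3 histone chaperone gene, was at 35.2, 36.1 and 38.7 CPM (lowest, median, highest) in fl/fl and 39.0, 43.3 and 45.5 CPM in iADKO, with no overlap and a log2 fold change of 0.22 (edgeR adjusted p = 0.00327). *Incenp*, a chromosomal passenger gene, was at 12.2 ± 1.21 CPM (SD, n = 7) against 16.1 ± 2.16 (SD, n = 6), and *Chaf1b*, a subunit of the replication-coupled chaperone CAF-1, at 2.06 ± 0.445 CPM (SD, n = 7) against 2.88 ± 0.510 CPM (SD, n = 6). Their log2 fold changes were 0.39 and 0.48 (edgeR adjusted p = 0.00744 and 0.0368), and both genes are also used by dividing cells, whose 6 raised markers are given above. The part of dividing cells in both rises was not tested. The call of *Chaf1b* was lost when any 1 of 9 libraries (fl/fl 1, 2, 3, 4 or 6, iADKO 1, 2, 3 or 5) was left out, with edgeR adjusted p of 0.0528 to 0.0846, and *Chaf1b* passed in 11 of 24 alternatives. The fourth was *Lbr*, the lamin B receptor gene, whose product tethers HP1 to the inner nuclear membrane, with 43.0 and 49.9 CPM in the group means and a log2 fold change of 0.22 (edgeR adjusted p = 0.00781), named after its value was seen.

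Around HDAC3 and the lamina, 3 of 8 genes rose and 2 fell. *Zbtb7b*, which encodes a zinc finger repressor, was at 138, 160 and 191 CPM (lowest, median, highest) in fl/fl and 115, 119.7 and 121 CPM in iADKO. All iADKO libraries were below all fl/fl libraries, and the log2 fold change of -0.49 (standard error 0.068, edgeR adjusted p = 0.00039) was the largest fall in the 9 lists. The paralogs of the NCoR/SMRT complex moved in opposite directions, *Tbl1xr1* with a log2 fold change of 0.28 (edgeR adjusted p = 0.00244) and *Tbl1x* with -0.21 (edgeR adjusted p = 0.0125). *Emd*, the gene of emerin, which binds HDAC3 at the inner nuclear membrane, rose from 31.6 ± 2.02 CPM (SD, n = 7) to 37.8 ± 2.47 CPM (SD, n = 6), by 0.26 on the log2 scale (edgeR adjusted p = 0.00368), and *Tmpo*, the gene of the LAP2 proteins, had a log2 fold change of 0.19 (edgeR adjusted p = 0.0308). The call of *Tmpo* was lost without any 1 of 6 libraries (fl/fl 1, 3 or 4, iADKO 1, 2 or 3), with edgeR adjusted p of 0.0586 to 0.0699. *Tbl1x* and *Tmpo* were named after their values were seen. Of the 10 other histone deacetylases 1 fell, *Hdac6*, a mainly cytoplasmic tubulin deacetylase, with a log2 fold change of -0.19 (edgeR adjusted p = 0.0116) that was 0.0069 with library totals.

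**Figure D4:**
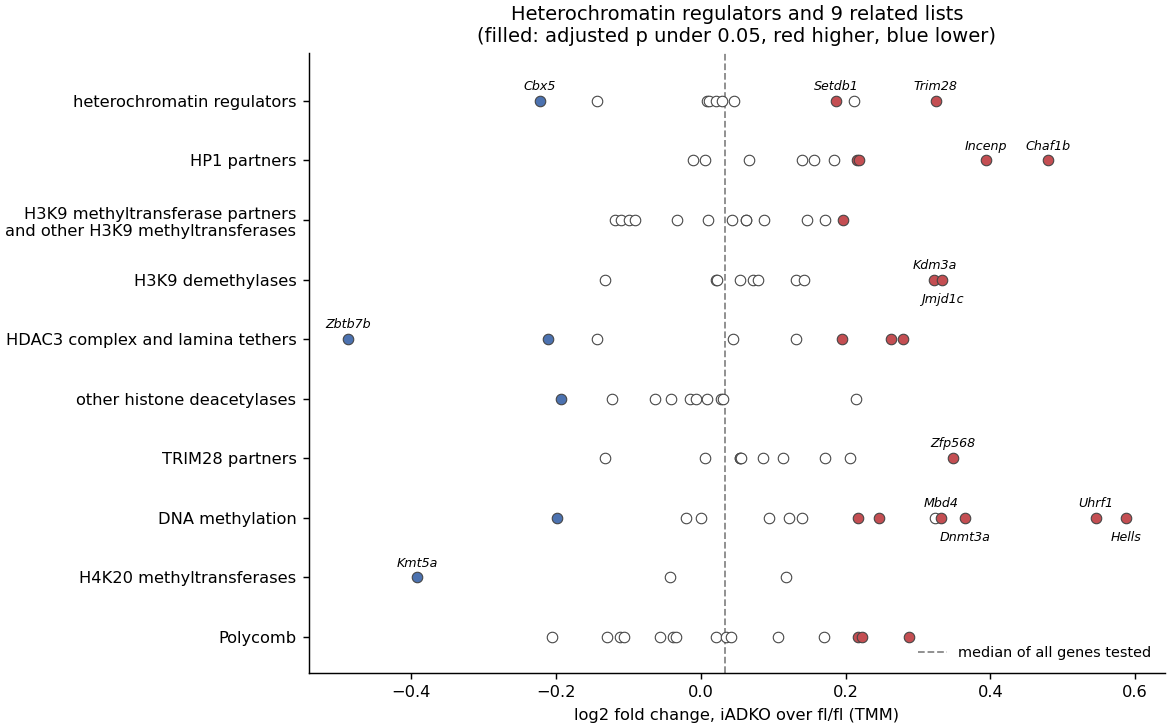
Log2 fold change, iADKO over fl/fl with TMM scaling (horizontal axis), of every tested gene (points) of the 10 members and 9 related lists. Filled points passed edgeR's test (red higher, blue lower), and the dashed line is the median of all genes tested, 0.033. *Cbx5* and *Zbtb7b* lie on the lower side, *Trim28*, *Uhrf1* and *Hells* on the higher side, and most points lie near the line.

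Partners of the H3K9 methyltransferases and other methyltransferases of that residue passed in 1 of 13 cases. This was *Atf7ip*, which encodes the protein that stabilizes SETDB1 in the nucleus, at 85.6, 98.0 and 107 CPM (lowest, median, highest) in fl/fl and 106, 111 and 115 CPM in iADKO, and its log2 fold change was 0.20 (standard error 0.048, edgeR adjusted p = 0.00823). The groups overlapped only slightly. Among 10 tested H3K9 demethylases 2 rose, *Kdm3a* (log2 fold change 0.32, edgeR adjusted p = 0.00667) and *Jmjd1c* (0.33, edgeR adjusted p = 0.00701). Of 10 partners of TRIM28, *Zfp568*, a KRAB zinc finger gene, rose from 13.7 ± 1.62 CPM (SD, n = 7) to 17.4 ± 1.83 CPM (SD, n = 6), by 0.35 on the log2 scale (edgeR adjusted p = 0.00988), and the other 9 did not pass.

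DNA methylation genes passed in 7 of 13 cases, 6 higher and 1 lower. The largest rises were those of *Hells* and *Uhrf1*, which encode a remodeller and a ubiquitin ligase of maintenance methylation, and of *Dnmt3a*, a de novo methyltransferase gene. *Hells* went from 2.57 ± 0.586 CPM (SD, n = 7) to 3.87 ± 0.575 CPM (SD, n = 6), with a log2 fold change of 0.59 (edgeR adjusted p = 0.0119). *Uhrf1* went from 5.23 ± 1.11 CPM (SD, n = 7) to 7.63 ± 1.29 CPM (SD, n = 6), and *Dnmt3a* from 94.7 ± 10.5 CPM (SD, n = 7) to 122 ± 14.4 CPM (SD, n = 6). Their log2 fold changes were 0.55 and 0.36 (edgeR adjusted p = 0.0138 and 0.00631), and 0.57 and 0.46 without fl/fl 5 and iADKO 6. *Hells* and *Uhrf1* are induced in dividing cells, and 6 of the 10 proliferation markers rose in the same libraries. The part of dividing cells in these rises was not tested. The gene that fell was *Mbd3* (log2 fold change -0.20, edgeR adjusted p = 0.0411), named after its value was seen. It passed only as long as none of 9 libraries (fl/fl 1, 2, 3, 4 or 7, iADKO 1, 3, 4 or 5) was left out, which gave edgeR adjusted p of 0.0645 to 0.100, and it did not pass without a filter. Of the 3 H4K20 methyltransferases, of which KMT5B and KMT5C are recruited by HP1, *Kmt5a* fell (log2 fold change -0.39, edgeR adjusted p = 0.0258), *Kmt5b* was at -0.043 and *Kmt5c* at 0.12 (edgeR adjusted p = 0.600 and 0.225). *Kmt5a* was at 96.5 to 108 CPM in iADKO, within its fl/fl range of 91.0 to 171 CPM. Its log2 differences within the 2 runs of library numbers with both genotypes were -0.028 and -0.55. Of 15 Polycomb genes 3 rose, *Cbx6* (log2 fold change 0.29), *Eed* (0.22) and *Rnf2* (0.22), with edgeR adjusted p of 0.0361, 0.0242 and 0.0127. *Cbx6* passed in 12 of 24 alternatives and not without any 1 of fl/fl 1, 3, 6 or 7 or iADKO 1, 2, 4 or 5 (edgeR adjusted p 0.0539 to 0.0923), and its log2 differences within the 2 runs of library numbers were -0.061 and 0.60. Leaving out fl/fl 3, iADKO 1 or iADKO 3 took *Eed* to edgeR adjusted p of 0.0501 to 0.0573, and leaving out fl/fl 1, fl/fl 3, iADKO 1 or iADKO 5 took *Kmt5a* to 0.0502 to 0.0525.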

How the data were processed

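Bulk RNA-Seq of whole pmWAT from 13 mice was analyzed, with genotypes and replicate numbers from the sample labels. The authors deposited raw counts per gene for 33618 Ensembl identifiers and, in a second table, log2 values (DESeq2 rlog) of the same counts. Per the labels and the study's methods, strand-specific mRNA libraries were aligned to mm39 with STAR 2.7.11a after FastQC 0.12.1. The counting tool and annotation are not given in the sources used here. Gene names and coordinates came from GENCODE vM39 (GRCm39), which held 33184 of the identifiers. In R 4.3.3, genes were filtered with filterByExpr of edgeR 4.0.16, normalized by TMM and compared by its robust quasi-likelihood test with no covariate, adjusted by Benjamini-Hochberg over 16753 genes. CPM are TMM-normalized, and log2 CPM for ratios used a prior count of 2. Nothing in the labels says more of the replicates than 1 library per mouse, and the errors are the spread between mice.

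The members and lists were chosen with earlier results of these data known. Named genes are *Lmna*, the members and, per list, up to 3 genes past the threshold with average log2 CPM of at least 1 and the largest absolute log2 fold change, or every gene of a list of 5 or fewer. The alternatives were DESeq2's size factors, the DESeq2 1.42.0 Wald test, an unfiltered table, at least 10 counts in every library, replicate or library-number blocks, limma 3.58.1 on the rlog values, removal of mitochondrial genes and each library left out. Leaving out 2 libraries together, library totals without TMM factors and joined series were added after seeing the data. The edgeR, DESeq2, limma and block fits and the permutation test were run on simulated data. These data held no effect of replicate or library series, so the blocks were not tested on one. On the simulated counts limma was run on log2 CPM, not on rlog values.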

Additional observations from a re-analysis of the deposited data

Results flagged for a closer look

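In 74 groups of 6 or 7 libraries tested for a library far from the others, 8 held one, and chance flags about 1 in 20 groups. Library fl/fl 5 was the highest of its group for *Setdb1* (51.6 CPM, group median 42.9), *Dnmt3a* (117.7 CPM, median 91.4) and *Kmt5b* (97.9 CPM, median 84.9). It also had the lowest adipocyte marker level (14858 CPM) and the highest macrophage marker level (2515 CPM) of the fl/fl libraries, and the part of this in the 3 values was not tested. Library iADKO 6, at the other end for those markers, was the lowest of its group for *Uhrf1* (5.16 CPM, median 7.93). In fl/fl 2, *Ehmt1* was the highest of its group (60.8 CPM, median 53.8) and *Ehmt2* the lowest (147.9 CPM, median 161), so the log2 ratio of *Ehmt2* to *Ehmt1* was the lowest there (1.28, median 1.58). The log2 ratio of *Cbx3* to *Cbx1* was highest in fl/fl 7 (-0.51, median -0.67).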

How the results depend on the processing

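Over 24 alternatives, *Trim28* passed in 23 (log2 fold change 0.23 to 0.53), *Cbx5* in 21 (-0.26 to -0.021), *Setdb1* in 12 (0.13 to 0.39) and *Hdac3* in 6 (-0.21 to 0.059). Among all genes, 2367 rose and 2737 fell. The library number series as a block gave 40 and 14, and its form with the series of iADKO 1 joined to that of fl/fl 1, 2 and 3 and iADKO 2 gave 784 and 1202. In the first no member and no gene of the other lists passed (0 higher and 0 lower in each). In the second 1 member rose and 0 fell, with *Cbx5* at an adjusted p of 0.0898, and 4 and 2 other heterochromatin genes passed. Library totals without TMM factors gave 7397 and 1276 genes, 7 members higher and 0 lower, and 65 and 1 of the other genes. There *Hdac3* was at 0.059, *Hdac6* at 0.0069 and *Kmt5b* at 0.16 on the log2 scale, as the shift of the median of all genes shows. DESeq2's size factors, its Wald test, limma on the rlog values and leaving out fl/fl 5 and iADKO 6 together each gave 2 members lower, the second being *Hdac3*, and the last gave 12 of the other genes lower. Among all genes, 2913, 3221, 2922 and 3910 fell in these fits. Without a filter 1 member rose, beside 1623 of all genes. The cause was not tested for the blocks or the filter.

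Members with values near 0 changed sign, none of them past the threshold. *Cbx1* was at -0.010 with the series block and -0.0041 with the joined one. *Cbx3* was at -0.0038 with DESeq2's size factors, -0.0073 with its Wald test, -0.0020 with no filter, -0.0043 with the series block, -0.0044 with limma and -0.015 without fl/fl 5 and iADKO 6. *Ehmt1* was at -0.0060, -0.0088, -0.0042, -0.0071 and -0.0023 under the same alternatives, the series block apart, and *Suv39h1* at -0.0060 without fl/fl 5 and iADKO 6.

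With 1 library left out, 1 to 2 members rose and 1 to 2 fell, and 3 to 8 of the other genes fell (3 without fl/fl 1, fl/fl 3, iADKO 1 or iADKO 5, 8 without iADKO 6, against 5). Among all genes, 1769 to 3319 rose and 2216 to 3285 fell in these fits. *Hdac3* passed without fl/fl 5 (3319 genes higher, 3285 lower) and without iADKO 6 (2677 higher, 3060 lower). Values that changed sign ran from -0.014 to 0.031 for *Cbx3*, from -0.012 to 0.035 for *Ehmt1*, from -0.061 to 0.0022 for *Kmt5b*, from -0.027 to 0.019 for the log2 ratio of *Cbx3* to *Cbx1* and from -0.023 to 0.039 for *Ehmt2* to *Ehmt1*. *Trim28* to *Setdb1* was 0.11 to 0.15, and passed without fl/fl 1 (0.15, exact permutation adjusted p = 0.026).

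Permuting within series (24 splits, smallest p 0.0417) gave -0.20 for *Cbx5* to *Cbx1*, -0.21 for *Cbx5* to *Cbx3* and 0.0035 for *Cbx3* to *Cbx1*, and none passed after adjustment.

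Replicate numbers are shared by the genotypes, but the residual correlations of same-numbered libraries were between -0.026 and 0.22, not above 0.1 in every pair, and 2 of 6 iADKO libraries correlated best with their own number, so the numbers were not taken as pairing. With the replicate block, which left out fl/fl 7, 2379 genes rose and 2454 fell, 1 member rose, *Setdb1* was at 0.19 (edgeR adjusted p = 0.0516) and *Ehmt1* at -0.0033. In the paired ratios (exact sign-flip test over 6 pairs, smallest p 0.0312) *Cbx5* to *Cbx1* was -0.26, *Cbx5* to *Cbx3* -0.28 and *Cbx3* to *Cbx1* 0.016, and none passed after adjustment. Both *Cbx5* ratios were at that smallest p (exact sign-flip p = 0.0312, adjusted p = 0.0938). A single ratio at the smallest p could not pass over 6 ratios, so the sign-flip test cannot decide here either.

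Depth limited *Suv39h2*, with 13 to 30 reads per library, more than any other member. Whole-tissue RNA holds no separate value for adipocytes, and mRNA is no measure of HP1 protein or H3K9 methylation.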
